A study of Saccharomyces cerevisiae with 24 samples.

Results

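Replication origins in budding yeast are short stretches of DNA, named ARS for autonomously replicating sequence, from which chromosome copying starts. The deposited expression table of Saccharomyces cerevisiae holds 352 rows whose identifier begins with ARS and a number, among 8009 rows in all, and these 352 origin rows are described here. The rows ARS1200-1 and ARS1200-2 are the origin copies of the ribosomal DNA on chromosome XII. They carried the same value in every library and were counted once, which left 351 origins, and 27 further origins lie elsewhere on chromosome XII. An origin row holds RNA reads assigned to an origin, so it bears on transcription through the origin and not on its replication. A row can miss such RNA, since origins wholly inside a plus strand gene were listed at 0 in every library.

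The 24 libraries were poly(A)-selected and made with a directional kit from pure cultures of a BY background. They form 8 groups of 3 biological replicates each: the point mutant hsh49::Q24P, the deletions nam8D and mud1D, and WT, each in starvation (48 h of culture) and in log phase. All cells grew in synthetic medium with 2% glucose to which histidine, leucine, uracil and lysine had been added. Hsh49 is a protein of the U2 small nuclear ribonucleoprotein, Nam8 and Mud1 belong to the U1 small nuclear ribonucleoprotein, and both particles recognise introns. The comparisons ask how the splicing mutants and starvation bear on RNA levels. Each genotype is 1 strain, so strain and genotype cannot be told apart. The tor1 delta cells that the study's design also names were not analysed here.

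The origin recognition complex binds an origin at the ARS consensus sequence, an AT-rich motif of 11 bases, and loads the helicase there in G1 phase. Origins lie mostly between genes, and RNA polymerase II running through an origin is known to hinder that loading. Cells that stop growing in starvation leave the division cycle and do not fire origins. In the ribosomal DNA, the spacer between repeats holds an origin, a replication fork barrier and promoters that Sir2 silences.

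All 352 rows were found in the RefSeq annotation of release R64, 348 under the same name and 4 under another name. They were between 51 and 1324 bases long with a median of 241, and the annotation gives all of them on the plus strand. The ARS consensus sequence, searched on both strands, was present in 124 of the 352 origins (35.2%). In windows of 250 bases it was present in 33.8% of windows centred on an origin and in 1.57% of the 48277 windows that tile the nuclear genome. The origins had a median of 70.2% A and T and the tiling windows held 61.7%. How much of the contrast goes with base composition was not tested. The 123 counted origins with a match had a median of 1.03 TPM and the 228 without one had a median of 1.14 TPM. The sequences below, from the R64 genome and on the plus strand, are those the results turn on: the ribosomal DNA origin, which was high in the mutant mud1D, the origin that stood highest in starved WT against the starved mutants, an origin after each of 2 genes read at a high level in starvation, and ARS416 (also called ARS1), a classical origin listed at 0. Capitals mark a match to the consensus on either strand, and ARS1323 has none.

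ARS1200-1, chrXII:458991-459097: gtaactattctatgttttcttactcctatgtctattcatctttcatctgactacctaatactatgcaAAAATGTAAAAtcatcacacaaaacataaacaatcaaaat
ARS1323, chrXIII:611275-611489: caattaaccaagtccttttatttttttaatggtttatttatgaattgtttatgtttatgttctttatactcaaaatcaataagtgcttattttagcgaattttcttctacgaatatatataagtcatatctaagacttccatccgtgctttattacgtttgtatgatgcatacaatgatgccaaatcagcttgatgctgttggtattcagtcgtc
ARS1424, chrXIV:609520-609607: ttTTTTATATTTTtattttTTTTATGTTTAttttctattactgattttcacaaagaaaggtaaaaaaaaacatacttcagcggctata
ARS733, chrVII:977728-977976: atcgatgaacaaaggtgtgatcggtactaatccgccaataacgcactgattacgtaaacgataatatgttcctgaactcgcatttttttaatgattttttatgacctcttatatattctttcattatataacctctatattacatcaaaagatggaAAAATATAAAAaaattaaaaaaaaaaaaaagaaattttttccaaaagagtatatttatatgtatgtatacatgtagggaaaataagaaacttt
ARS416, chrIV:462567-462622: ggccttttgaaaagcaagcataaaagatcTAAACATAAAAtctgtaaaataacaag

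Values are TPM as the authors deposited them, a transcript level normalised for length and for the total of its library. The deletions left NAM8 at 0.12 TPM in starved nam8D against 45.3 TPM in starved WT, and MUD1 at 3.58 TPM in starved mud1D against 69.2 TPM in starved WT. HSH49 carries a point mutation and its level checks nothing. In log phase LEU2 stood at 14.5 TPM in nam8D and 3.37 TPM in mud1D, against 5191 TPM in WT, and URA3 was listed at 0 in both of these mutants and averaged 4.96 TPM in WT, so the marker state of the strains differs together with the genotype. The 3 hsh49::Q24P log libraries had 466, 118 and 63.0 TPM of LEU2 and starved hsh49::Q24P had 0.93 TPM. URA3 averaged 0.191 TPM in these log libraries, between 0.0391 and 0.459 TPM, and was listed at 0 in starved hsh49::Q24P. Whether RNA of WT cells is in these log libraries was not tested, and the comparison of hsh49::Q24P with WT in log phase rests on them. Leaving out any one of those log libraries left between 102 and 107 origins called in the starvation comparison of that mutant, and between 19 and 23 in its interaction with WT. All 3 hold LEU2 signal, so leaving out a single library cannot show what such RNA would change. More RNA through an origin and less of all other RNA cannot be told apart in these values, nor can fewer cells and less RNA per cell.

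Most origin rows held little RNA. Their mean over the 24 libraries had a median of 1.11 TPM, with quartiles of 0.221 and 4.44 TPM, against a median of 42.3 TPM over 6677 rows of open reading frames. Of the 351 origins, 167 averaged under 1 TPM, 143 between 1 and 10 TPM and 41 at least 10 TPM, while 27 were listed at 0 in every library. At 1 read in an origin of 250 bases, the smallest step seen in a library was between 0.13 and 0.271 TPM, so values under 1 TPM rest on a few reads. Over all libraries 2 origins averaged over 100 TPM: ARS717, which overlaps the end of PYC1 (pyruvate carboxylase), and the ribosomal DNA origin.

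The place of an origin went with its level. The 7 origins that lie wholly inside a gene of the plus strand were listed at 0 in all 24 libraries, and none of the 12 that lie only inside a gene of the minus strand was. The genes around those 7 averaged between 0.129 and 31.5 TPM, so a 0 in an origin row does not show a lack of RNA through the origin. Whether reads were counted by strand, or shared where an origin overlaps a gene, is not given in the sources used here. The 122 origins that overlap the end of a gene had a median of 1.80 TPM, and the 210 between genes had a median of 0.909 TPM. Among those between genes, the median was 0.967 TPM where the genes on both sides end towards the origin (n = 49) and 0.503 TPM where both start away from it (n = 42).

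**Figure D1:**
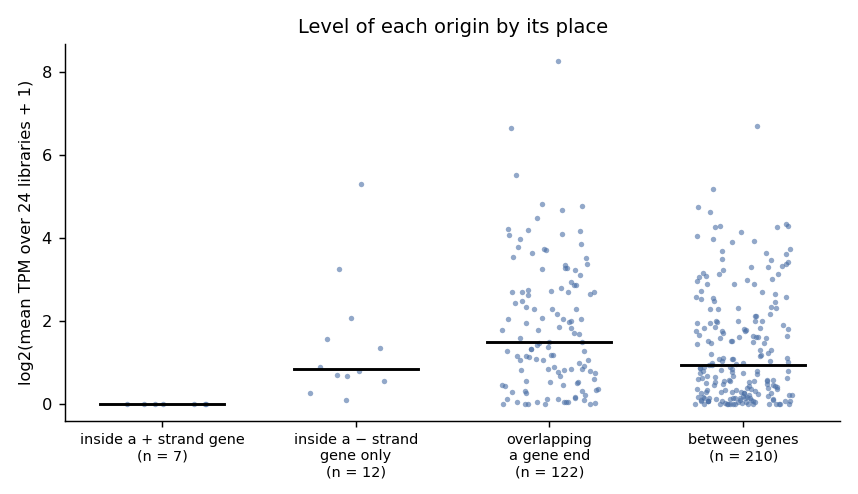
Mean level of each origin over the 24 libraries, as log2(TPM + 1), by its place in the R64 annotation; each point is an origin and the bar is the group's median. The 7 origins inside a plus strand gene sit at 0, and the 122 that overlap a gene end have a median of 1.80 TPM against 0.909 TPM for the 210 between genes.

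ARS1207 lies inside SPO75, a sporulation gene on the minus strand that averaged 0.261 TPM, yet it was among the 10 highest origins. It read at 68.2, 61.2 and 69.0 TPM in starved hsh49::Q24P against 44.4, 53.3 and 45.6 TPM in starved WT. In log phase hsh49::Q24P had 16.5, 17.1 and 15.1 TPM and WT had 18.1, 16.2 and 17.9 TPM. Its rise in starvation was 1.96 ± 0.09 in hsh49::Q24P and 1.40 ± 0.09 in WT (log2 difference ± SE, limma adjusted p = 6.2e-14 and 2.0e-11). Of the 10 highest origins, 6 more overlap or closely follow the end of a plus strand gene. ARS1611 at the end of SPT14 averaged 44.3 TPM over the 24 libraries, ARS107 after the kinase gene PSK1 35.2 TPM, ARS706 at the end of ARO8 26.9 TPM, ARS221 at the end of COS111 26.1 TPM, ARS419 after YOS9 25.5 TPM and ARS429, 44 bases after the silencing gene SIR4, 24.4 TPM. Of these, ARS706 was the one that read lower in starvation, at -1.08, -0.23, -1.13 and -0.71 in hsh49::Q24P, nam8D, mud1D and WT, and was called in hsh49::Q24P and mud1D. ARS808, inside ARG4 of arginine synthesis, averaged 1.94 TPM while ARG4 averaged 849 TPM on the other strand.

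Within 300 bases, the level of an origin was lower the farther it lay from the end of the plus strand gene before it. Gene ends here are ends of the coding sequence, and the untranslated end of an mRNA runs on past them. Where such a gene overlapped the origin, the origin stood at a median of 18.5% of the gene's TPM (n = 44 pairs), and where the gene ended up to 99 bases before it, at 7.92% (n = 57). From 100 to under 200 bases it was 1.65% (n = 26), and from 200 to under 300 bases 0.304% (n = 12, quartiles 0.1% and 11.1%). From 300 to 1000 bases it was no lower, at 0.385% (n = 37, quartiles 0.111% and 2.99%). The genes themselves differed little between these classes, with medians between 40.2 and 64.1 TPM. The 156 origins with such a gene within 300 bases had a median of 2.52 TPM and held 30 of the 41 origins at 10 TPM or more, and the 188 without one had a median of 0.728 TPM.

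Most rows of the well-known origins read low, which does not show that little RNA ran through these origins. ARS605, inside MSH4, read between 0 and 3.38 TPM over all libraries. ARS416, ARS317 (the silent mating type origin at HMR) and ARS604 were listed at 0 in every library, and no row carries the name ARS501. ARS604 lies wholly inside BLM10, a plus strand gene that averaged 25.6 TPM. ARS305, ARS306, ARS301, ARS522, ARS606 and ARS607 on chromosomes III, V and VI, ARS209 beside a histone H4 gene and ARS1014 stayed at or under 2 TPM in every library. ARS307, ARS603 and ARS1211 read higher. ARS307, which overlaps the end of LDB16, read between 9.58 and 15.1 TPM over all starved libraries and between 12 and 18.7 TPM over all log libraries, and it was not called in any comparison. ARS603 lies 60 bases after MIL1 and had 17.4, 17.1 and 20.3 TPM in starved mud1D against 0.665, 7.20 and 8.79 TPM in mud1D in log phase, a rise of 1.91 ± 0.43 (log2 ± SE, limma adjusted p = 0.00039) that rests in part on 1 low log library. ARS1211 had 1.08, 1.32 and 1.90 TPM in starved WT against 4.73, 3.57 and 3.57 TPM in WT in log phase, and it fell in all 4 genotypes, by 1.59, 1.54, 1.70 and 1.03 in hsh49::Q24P, nam8D, mud1D and WT.

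The ribosomal DNA origin was the origin that set the genotypes apart in growing cells. ARS1200 read at 529, 498 and 532 TPM in mud1D in log phase, at 60.7, 53.4 and 55.9 TPM in nam8D and at 19.7, 22.4 and 21.5 TPM in hsh49::Q24P, against 16.2, 17.4 and 16.3 TPM in WT. The mud1D libraries stood far above all others, the nam8D libraries above hsh49::Q24P and WT, and no group overlapped with WT. The difference from WT in log phase was 4.88 ± 0.10 in mud1D and 1.71 ± 0.10 in nam8D (log2 ± SE, limma adjusted p = 1.6e-18 and 4.7e-10), and 0.33 ± 0.10 in hsh49::Q24P, which was not called (adjusted p = 0.30). In starvation the values were 139, 127 and 130 TPM in mud1D, 33.0, 31.5 and 35.8 TPM in nam8D and 21.7, 17.9 and 24.7 TPM in hsh49::Q24P, against 16.9, 16.0 and 21.1 TPM in WT. The difference from WT was then 2.81 ± 0.10 in mud1D (adjusted p = 2.4e-14) and 0.87 ± 0.10 in nam8D, under the size needed for a call.

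**Figure D2:**
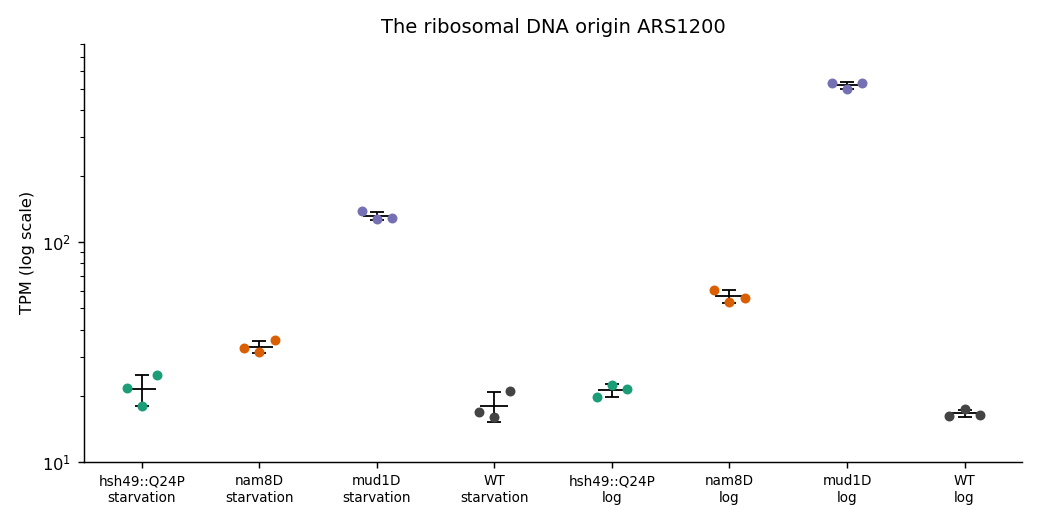
TPM of the ribosomal DNA origin ARS1200 on a log scale in the 8 groups; points are libraries, and the bars give the mean and SD (n = 3 each). The mud1D libraries lie at 127 to 139 TPM in starvation and at 498 to 532 TPM in log phase, against 16.0 to 21.1 TPM and 16.2 to 17.4 TPM in WT.

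In starvation against log phase the ribosomal DNA origin fell in mud1D, by 1.97 ± 0.10 on the log2 scale (limma adjusted p = 3.1e-13). The difference was -0.74 ± 0.10 in nam8D, under the size needed for a call, and 0.01 and 0.10 in hsh49::Q24P and WT, where neither was called. The direction in these strains depends on the scaling: with libraries centred on the median row it was -0.33 in hsh49::Q24P and -0.41 in WT, under the size needed, and scaled to the spike-in RNAs it was -1.06 in hsh49::Q24P, which was called, and -0.19 in WT. The nam8D difference under these scalings was -1.17 and -1.80 and was called in both. The response of mud1D differed from that of WT by -2.07 ± 0.14 (interaction term, adjusted p = 1.5e-09). Reads of repeated sequence can be shared among copies, and how the authors assigned them is not given in the sources used here.

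Some other rows of the ribosomal DNA were also higher in mud1D than in WT in log phase, and others were not called. The spacer row NTS2-1 had 1533, 1429 and 1839 TPM in mud1D and 242, 195 and 222 TPM in nam8D, against 61.2, 74.2 and 56.5 TPM in WT. RDN5-1, a 5S ribosomal RNA copy that starts 578 bases after the origin, averaged 448 TPM in mud1D and 32.9 TPM in WT, and the external transcribed spacer ETS1-1, 558 bases on the other side and on the minus strand, averaged 879 TPM in mud1D and 122 TPM in WT. The spacers NTS1-2 and ITS1-1 were called too, at 2.91 and 1.36 on the log2 scale. ETS2-2 was called at 1.29, while its other copy ETS2-1 had the same difference and was not (limma adjusted p = 0.0083 and 0.051). Both copies were low, at a mean of 1.92 TPM in mud1D and 0.156 TPM in WT. The ribosomal RNA rows RDN18-1, RDN58-1 and RDN25-2 stood at -0.31, 0.29 and 0.60 and the spacer ITS2-1 at 0.41, none of them called (limma adjusted p = 0.97, 0.95, 0.81 and 0.80). RDN25-1 averaged 33.8 ± 4.60 TPM in mud1D and 935 ± 1037 TPM in WT (SD, n = 3 each), a difference of -3.22 that was not called, and the 5S copies RDN5-2 to RDN5-6 were not called either. In starvation ETS1-1 averaged 1751 TPM in mud1D against 184 TPM in WT, and NTS2-1 averaged 122 TPM in mud1D against 30.9 TPM in WT. ITS1-1, RDN18-1 and RDN58-1 were also called higher in starved mud1D than in starved WT, at 3.64, 1.502 and 1.243. Their limma adjusted p was 8.614e-13, 0.005043 and 0.005465. RDN25-2, ITS2-1 and NTS1-2 stood at 0.86, 0.72 and 0.71 there and were not called. Among the other 27 origins of chromosome XII, of which 22 were tested, no origin was called in mud1D, nam8D or hsh49::Q24P against WT in log phase by limma. Of all tested rows 0.49%, 0.216% and 0.13% were called in these comparisons. At such shares, the lack of a call among 22 rows says little about these origins.

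The summed TPM over origins was higher in starvation in all 4 genotypes. Summed over the 350 origins outside the ribosomal DNA, starved libraries held 2624 ± 341 TPM in hsh49::Q24P, 2423 ± 160 TPM in nam8D, 2630 ± 244 TPM in mud1D and 2382 ± 161 TPM in WT (mean ± SD, n = 3 each). Log libraries held 799 ± 13.5, 865 ± 34.4, 786 ± 21.3 and 823 ± 56.3 TPM in the same order of genotypes. No starved library overlapped with a log library. These sums are of TPM as deposited, and a few high origins weigh much in them. ARS717 was the highest origin in starvation in each genotype. The median over the 351 origins was 1.26, 1.39, 1.28 and 1.37 TPM in starvation and 0.584, 0.578, 0.588 and 0.546 TPM in log phase. At least 1 TPM in all 3 replicates was reached by 166, 173, 162 and 176 origins in starvation and by 108, 113, 108 and 114 in log phase.

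**Figure D3:**
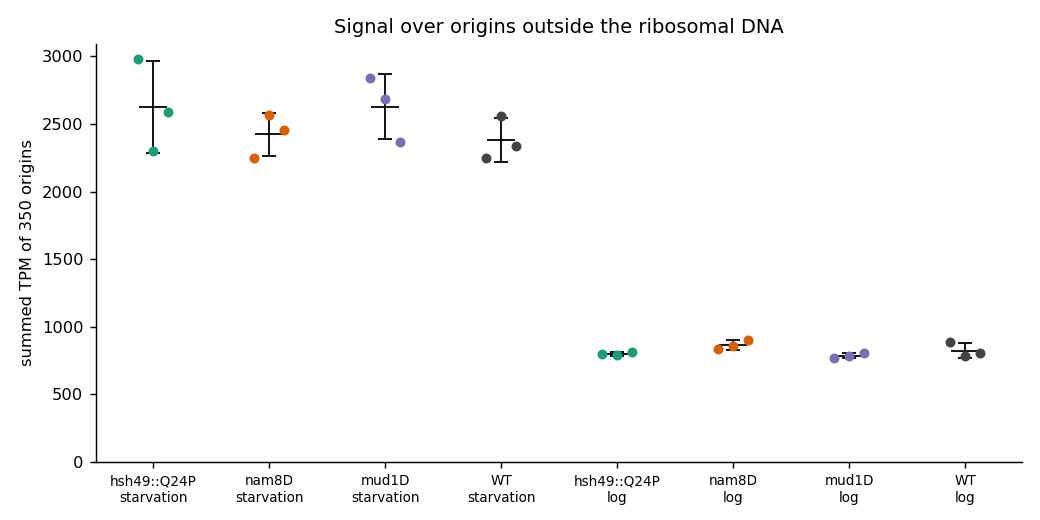
Summed TPM of the 350 origins outside the ribosomal DNA in each library (points), with mean and SD of the group (n = 3 each). The starved libraries lie between 2248 and 2982 TPM and the log libraries between 766 and 903 TPM.

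Testing was possible for 232 of the 351 origins, those with at least 1 TPM in at least 3 libraries; 63 of these passed only through starved libraries and 12 only through log libraries. An origin was called when its adjusted p was under 0.05 over all 6937 tested rows and log2(TPM + 1) differed by 1 or more. In hsh49::Q24P, 93 origins rose and 11 fell in starvation, where 29.4% of all tested rows rose and 13.5% fell. In nam8D, 97 rose and 10 fell (all rows 28.7% and 9.87%), in mud1D 94 rose and 10 fell (29.1% and 14.2%), and in WT 104 rose and 7 fell (27.8% and 8.62%). In either direction, 42.9%, 38.6%, 43.3% and 36.4% of all tested rows were called in hsh49::Q24P, nam8D, mud1D and WT. The median difference over the tested origins was 0.74, 0.79, 0.67 and 0.91 in hsh49::Q24P, nam8D, mud1D and WT, beside 0.42, 0.46, 0.39 and 0.50 over all tested rows. Since many origins passed the filter only through starved libraries, these shares are not those of all 351 origins.

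The counts depend on how libraries are scaled. With each library centred on its median row, 67 origins rose and 19 fell in hsh49::Q24P, 66 and 17 in nam8D, 69 and 22 in mud1D, and 56 and 13 in WT. Of all tested rows, 20.1% rose and 19.1% fell under this scaling in hsh49::Q24P, 16.7% and 17.4% in nam8D, 19.5% and 20% in mud1D, and 13.9% and 16% in WT. Scaled to the 92 spike-in RNAs, which moved the median of all rows to -0.57, -0.50, -0.37 and 0.23, the counts were 38 and 35, 45 and 30, 53 and 29, and 81 and 9. Of all tested rows, 9.18% rose and 35.2% fell when scaled to the spike-in RNAs in hsh49::Q24P, 8.98% and 32% in nam8D, 11.7% and 30.2% in mud1D, and 18.9% and 12.2% in WT. Under each scaling more of the tested origins rose than fell in each genotype. The filter was set on unscaled TPM, and 63 of these origins passed it only through starved libraries and 12 only through log libraries. The tested set thus leans towards rises under every scaling, and the excess of rises was not tested over all origins.

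The called origins overlapped between genotypes. In all 4, 64 origins rose and 6 fell, out of 136 that rose and 14 that fell in at least one genotype, and no origin was called in opposite directions. The 64 make up 68.8% of the origins that rose in hsh49::Q24P, 66.0% in nam8D, 68.1% in mud1D and 61.5% in WT. The same sharing was not counted over all tested rows, so it cannot be called particular to origins. Of the tested origins, 63 passed the filter only through starved libraries.

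Several of the largest rises in starvation were at origins that overlap or follow the end of a plus strand gene, and others were not. ARS717, which overlaps the last bases of PYC1, read at 752, 639 and 696 TPM in starved hsh49::Q24P, at 439, 602 and 600 TPM in nam8D, and at 764, 720 and 653 TPM in mud1D, against 331, 404 and 374 TPM in WT. In log phase it averaged between 24.6 and 32.2 TPM in the 4 genotypes, so no library overlapped. The rise was 4.60 ± 0.14, 4.03 ± 0.14, 4.57 ± 0.14 and 3.85 ± 0.14 (log2 ± SE, limma adjusted p = 6.5e-17, 6.3e-16, 7.5e-17 and 1.8e-15), while PYC1 rose by 4.36, 3.94, 4.28 and 3.52.

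ARS427 starts 44 bases after ADR1, the activator of genes for non-fermentable carbon sources, and overlaps the end of RAD9 on the other strand. It had 248, 185 and 284 TPM in starved hsh49::Q24P and 111, 143 and 126 TPM in starved WT, against 8.90, 11.9 and 8.88 TPM and 8.40, 7.99 and 9.32 TPM in log phase. It rose by 4.45 ± 0.19 and 3.74 ± 0.19, beside 3.76 and 3.20 for ADR1, whereas RAD9 differed by 0.33 and 0.80 and was not called. ARS733 overlaps the end of MPC3, a subunit of the mitochondrial pyruvate carrier used in respiration. It rose by 4.17, 2.58, 3.60 and 3.58 in hsh49::Q24P, nam8D, mud1D and WT, and every log library was under 1.5 TPM.

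ARS1424 lies 66 bases after HEF3, a translation elongation factor expressed in poor conditions, and its 88 bases hold a pair of consensus matches. It read at 15.3, 15 and 15.2 TPM in starved nam8D against 48.6, 57.3 and 41.8 TPM in starved WT, with no overlap, and at 1.14 to 2.80 TPM in the log libraries of these genotypes. Its rise was 2.31 ± 0.21 in nam8D and 4.47 ± 0.21 in WT, and that of HEF3 was 2.67 and 4.34. ARS434, 12 bases after the spore wall gene DIT1, rose by between 2.57 and 3.56 while DIT1 rose by between 1.04 and 1.74. ARS1607, 78 bases after the stress factor gene USV1, had 42.9, 25.4 and 13.5 TPM in starved mud1D and 1.78, 2.15 and 0 TPM in mud1D in log phase, a rise of 3.64 ± 0.46.

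Other large rises were at origins without a protein-coding gene of the plus strand ending within 300 bases before them. In WT, ARS1023 rose by 4.07 and ARS815 by 4.04, beside 6.47 for ARS1323, 4.47 for ARS1424 and 3.85 for ARS717; in nam8D ARS1226, which follows a tRNA gene, rose by 4.69. ARS601, near the left end of chromosome VI with the closest plus strand gene end 2843 bases before it, had 15.2 to 22.9 TPM over the 9 starved mutant libraries and 4.34 to 7.80 TPM in starved WT. In log phase it stayed between 0.206 and 1.02 TPM. It rose by 3.62, 3.38, 3.42 and 2.16 in hsh49::Q24P, nam8D, mud1D and WT. ARS923, which lies 196 bases from SNP1 (a U1 particle protein gene on the minus strand), rose by 3.13, 3.46, 3.17 and 3.12. In all, 48 origins without a plus strand gene end within 300 bases rose in hsh49::Q24P, 53 in nam8D, 50 in mud1D and 54 in WT, of 113 tested, beside 45, 44, 44 and 50 of the 119 tested with one.

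Few origins fell. ARS304 on chromosome III, 252 bases before the gene RDT1, had 0.0967, 0 and 0.232 TPM in starved hsh49::Q24P and 0.859, 0.401 and 0.837 TPM in starved WT. In log phase it had 13.4, 9.78 and 11.4 TPM and 16.3, 15.4 and 17.6 TPM, and the groups did not overlap. It fell by 3.50, 3.32, 3.58 and 3.37 in hsh49::Q24P, nam8D, mud1D and WT (limma adjusted p between 9.0e-15 and 4.2e-14). RDT1 had 4.62, 1.00 and 0.823 TPM in starved hsh49::Q24P and 7.10, 6.39 and 8.9 TPM in starved WT. In log phase RDT1 had 27.8, 16.0 and 12.1 TPM in hsh49::Q24P and 22.6, 21.9 and 28.9 TPM in WT. ARS824, 33 bases after IMD2 (IMP dehydrogenase of guanine nucleotide synthesis), fell by 2.25, 2.37, 2.51 and 2.35, and ARS1628, at the end of TDA6, fell by 2.75, 1.94, 1.63 and 3.00. ARS1211, ARS1329 and ARS452 complete the 6 that fell in all 4 genotypes, each with a log mean under 6 TPM; ARS1329 and ARS452 were named after their values were seen.

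ARS735, at the end of the enolase gene ENO1, fell by 1.51 in nam8D. Some smaller falls rest on single libraries. ARS1501, at the end of the vacuolar channel gene YVC1, fell by 1.11, 1.41 and 1.15 in the mutants hsh49::Q24P, nam8D and mud1D; without starvation replicate 2 of hsh49::Q24P or of mud1D the differences were -0.86 and -0.98, under the size needed. ARS1220 in hsh49::Q24P fell by 1.17 with all libraries and was at -0.89 without starvation replicate 3. ARS609 in WT fell by 1.08 and was at -0.96 without starvation replicate 2.

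Across origins, the starvation difference followed that of the plus strand gene ending in or up to 300 bases before them. Over 111 such pairs, each with its own gene, Pearson's r was 0.84 in hsh49::Q24P, 0.78 in nam8D, 0.82 in mud1D and 0.88 in WT (Spearman's rho 0.79, 0.76, 0.79 and 0.82), where all points of a genotype share the same 6 libraries. Without the overlapping pairs, 72 were left and r was 0.83, 0.72, 0.78 and 0.86. For the minus strand gene that ends towards the origin within 300 bases, r was 0.09, 0.138, 0.104 and 0.0493 (n = 124), and for plus strand genes that start after it, 0.338, 0.45, 0.486 and 0.307 (n = 23). For minus strand genes that start away from the origin r was 0.274, 0.336, 0.335 and 0.287 (n = 41), and 0.402, 0.341, 0.394 and 0.532 for those within 1000 bases (n = 85).

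**Figure D4:**
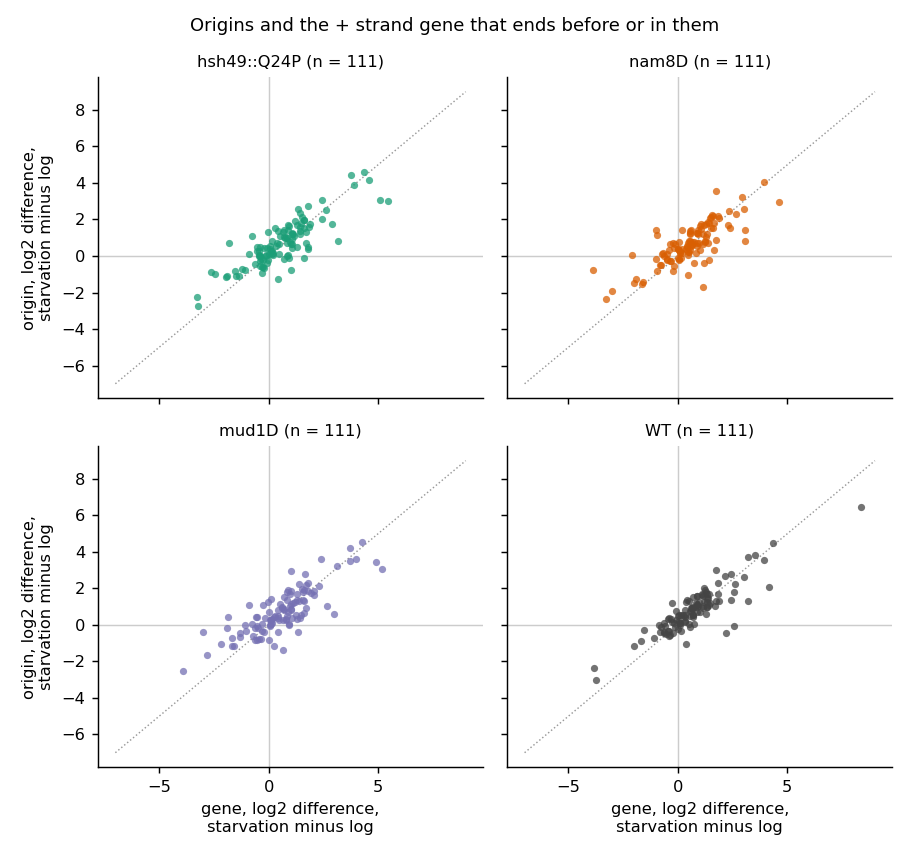
Log2 difference in starvation against log phase of each origin (vertical axis) and of the plus strand gene that ends in it or within 300 bases before it (horizontal axis), 111 pairs in each genotype; the dotted line marks equal differences. The points run along the line, with r between 0.78 in nam8D and 0.88 in WT.

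Among those 111 pairs in WT, 46 origins rose and for 34 of them the gene rose too, 4 fell and for 3 of them the gene fell. In hsh49::Q24P, 30 of 43 rising and 7 of 8 falling origins had a gene called the same way, in nam8D 29 of 40 and 6 of 8, and in mud1D 31 of 43 and 5 of 7. Of the 111 genes, 41 rose and 6 fell in WT, 41 and 12 in hsh49::Q24P, 40 and 9 in nam8D, and 42 and 13 in mud1D. A single pair, in nam8D, was called in opposite directions.

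In log phase the mutants differed from WT at almost no origin. In hsh49::Q24P none of 232 was called by limma (14 had an unadjusted p under 0.05), where 0.13% of all tested rows were called, 0.0577% higher and 0.0721% lower. In nam8D the ribosomal DNA origin was the 1 origin called (all rows 0.216%, of which 0.13% higher and 0.0865% lower). In mud1D 2 were called (all rows 0.49%): the ribosomal DNA origin rose, and ARS802 fell. ARS802 lies 155 bases after the subtelomeric gene COS8 on chromosome VIII and had 0, 0 and 0.534 TPM in mud1D against 2.49, 3.43 and 3.38 TPM in WT, a difference of -1.82 ± 0.33 (limma adjusted p = 0.0038); it was named for the count and lies under the level asked of other named origins. COS8 averaged 12.8 TPM in mud1D and 48.1 TPM in WT in log phase.

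Starved mutants differed from starved WT at more origins. In hsh49::Q24P 6 origins were higher and 18 lower than in WT, where 3.89% of all tested rows were higher and 7.5% lower. In nam8D 11 were higher and 17 lower (all rows 4.47% and 7.8%), and in mud1D 10 were higher and 18 lower (4.63% and 8.88%). The shares among origins, 2.59% and 7.76%, 4.74% and 7.33%, and 4.31% and 7.76%, lie near those of all rows. Centred on the median row, the counts higher and lower were 11 and 12, 12 and 15, and 12 and 12, and scaled to the spike-in RNAs 3 and 27, 2 and 26, and 6 and 22. Over all tested rows, the shares higher and lower were 5.48% and 5.65%, 5.03% and 6.86%, and 5.98% and 6.88% when centred, and 1.5% and 17.2%, 2.06% and 16.3%, and 2.61% and 13% when scaled to the spike-in RNAs. The 3 comparisons share the same WT libraries.

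**Figure D5:**
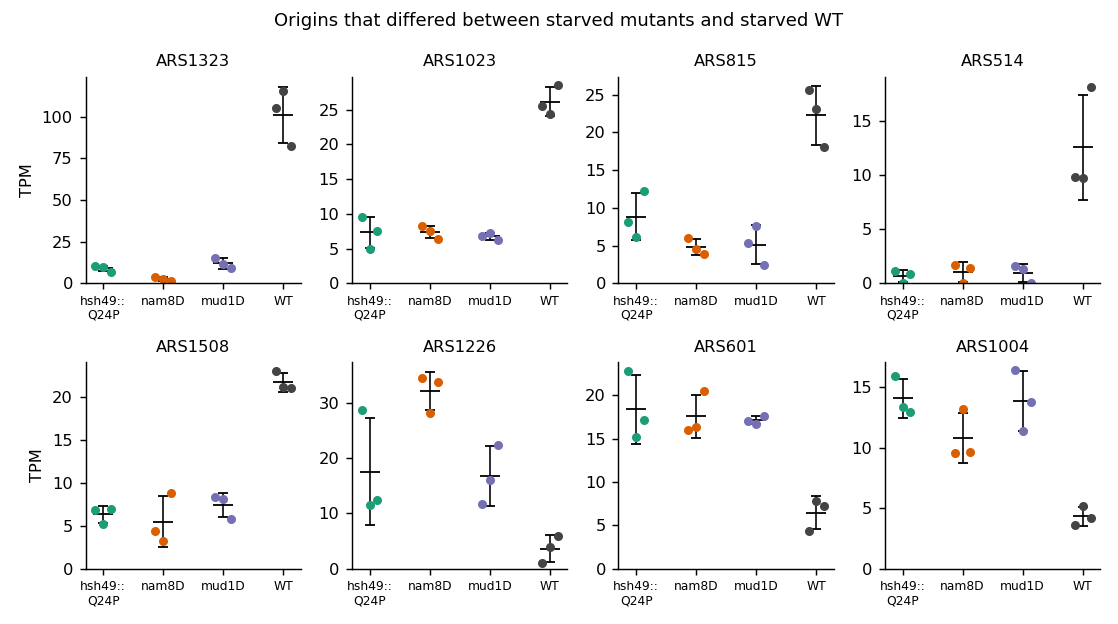
TPM in the starved libraries of 8 origins that were called between a starved mutant and starved WT; points are libraries, and bars give the mean and SD (n = 3 each). ARS1323, ARS1023, ARS815, ARS514 and ARS1508 are highest in WT, where ARS1323 reads at 82.2 to 115 TPM, and ARS1226, ARS601 and ARS1004 are lowest there.

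ARS1323 was the origin with the largest such difference. It lies 19 bases after SIP18, a gene induced by drying and salt stress, and overlaps the short reading frame YMR175W-A. It had 10.1, 9.67 and 6.95 TPM in starved hsh49::Q24P, 3.72, 2.49 and 1.34 TPM in nam8D and 15.4, 11.3 and 9.01 TPM in mud1D, against 105, 115 and 82.2 TPM in WT. In log phase every library was under 0.71 TPM, and no mutant was called against WT there. The differences from starved WT were -3.36 ± 0.25, -4.90 ± 0.25 and -3.00 ± 0.25 (log2 ± SE, limma adjusted p = 1.5e-09, 5.5e-12 and 5.0e-09), beside -3.09, -5.31 and -3.17 for SIP18, which averaged 228, 48.4 and 220 TPM in the starved mutants and 1941 TPM in starved WT.

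ARS1508, 5 bases after the tRNA methyltransferase gene TRM13, was also lower in the starved mutants than in starved WT. It had 6.8, 5.21 and 7.0 TPM in starved hsh49::Q24P, 4.38, 3.19 and 8.83 TPM in nam8D and 8.38, 8.11 and 5.83 TPM in mud1D, against 23.0, 21.1 and 21.0 TPM in WT. The differences were -1.64, -1.91 and -1.44, and those of TRM13 were -1.78, -2.22 and -1.75. ARS206, 85 bases after MIN6, differed by -1.94, -1.53 and -1.37, with MIN6 at -1.56, -1.70 and -1.84.

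Of the origins lower in the mutants, ARS1023, ARS815 and ARS514 have no plus strand gene ending within 300 bases before them. ARS1023 on chromosome X had 9.50, 4.96 and 7.48 TPM in starved hsh49::Q24P, 8.18, 7.59 and 6.39 TPM in nam8D and 6.84, 7.26 and 6.19 TPM in mud1D, against 25.6, 24.4 and 28.5 TPM in WT. The groups did not overlap, with differences of -1.74, -1.70 and -1.81. THI11, 386 bases from ARS1023 on the minus strand, had 17.4, 16.6 and 16.0 TPM in starved WT. It had 4.9, 4.57 and 6.85 TPM in starved hsh49::Q24P, 5.29, 4.04 and 3.58 TPM in nam8D and 5.65, 4.69 and 3.92 TPM in mud1D. ARS815 starts 612 bases from HXT5, a hexose transporter gene on the minus strand that starts away from it, and differed by -1.27, -2.01 and -2.01; HXT5 differed by -1.83, -3.16 and -2.22. ARS514 lies 637 bases from ICL1, the isocitrate lyase gene of the glyoxylate cycle on the minus strand, and had 9.81, 9.72 and 18.2 TPM in starved WT and at most 1.66 TPM in a starved mutant library. It differed by -3.04, -2.81 and -2.84, whereas ICL1 was called lower in nam8D and mud1D, at -3.28 and -1.66, and stood at -0.94 in hsh49::Q24P, which was not called (limma adjusted p = 0.16). The replicates of ICL1 spread widely, with 4447, 1656 and 605 TPM in starved mud1D and 4256, 909 and 5172 TPM in starved hsh49::Q24P. Starved WT had 5415, 5816 and 4456 TPM of ICL1.

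Others were higher in the starved mutants. ARS1226 on chromosome XII, 110 bases after a tRNA gene and 254 bases from the snoRNA gene SNR61, had 28.7, 11.5 and 12.4 TPM in hsh49::Q24P, 34.5, 28.1 and 33.8 TPM in nam8D and 11.7, 16.1 and 22.4 TPM in mud1D, against 0.999, 3.84 and 5.84 TPM in WT. It differed by 2.08 ± 0.39, 3.03 ± 0.39 and 2.09 ± 0.39 (limma adjusted p = 0.00015, 2.1e-06 and 0.00013). ARS601 differed by 1.39, 1.34 and 1.31, and by 0.99 and 0.94 in hsh49::Q24P and nam8D when scaled to the spike-in RNAs, just under the size needed. ARS1004 overlaps the end of REE1, a gene linked to enolase regulation, and had 15.9, 13.4 and 12.9 TPM, 9.55, 13.2 and 9.61 TPM and 16.4, 11.4 and 13.8 TPM in the same mutants, against 3.60, 5.17 and 4.16 TPM in WT. It differed by 1.51, 1.15 and 1.48, and REE1 by 2.69, 2.29 and 2.85. ARS1020 was higher in nam8D, by 1.25 ± 0.20 (0.89 and not called when scaled to the spike-in RNAs), and ARS1631, 194 bases after YPR196W, by 1.41 in mud1D.

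Over the 111 pairs with a plus strand gene ending in or near the origin, the differences from starved WT also ran with those of the gene, with r of 0.79, 0.79 and 0.82 in the mutants hsh49::Q24P, nam8D and mud1D. The gene was called the same way for 8 of the 9 origins called in hsh49::Q24P, 10 of 14 in nam8D and 9 of 13 in mud1D. Of the 111 genes, 5 were called higher and 11 lower in hsh49::Q24P, 4 and 13 in nam8D, and 7 and 10 in mud1D.

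The starvation response itself was set against that of WT by an interaction term. The response was higher than in WT at 6 origins and lower at 14 in hsh49::Q24P (all rows 3.34% and 7.9%), at 9 and 16 in nam8D (4.27% and 8.65%) and at 9 and 19 in mud1D (3.98% and 9.56%). ARS1323 led the lower ones in each mutant, at -3.44, -5.05 and -3.03. ARS1226 led the higher ones in nam8D at 2.83 and in mud1D at 1.63, and stood at 1.46 in hsh49::Q24P. In hsh49::Q24P this call rests on single libraries: it was lost without log replicate 1 (1.36) or 2 (1.24) or starvation replicate 1 (1.06) of hsh49::Q24P, and without log replicate 1 (1.31) or 2 (1.54) or starvation replicate 1 (0.95) of WT. In mud1D it was lost without WT log replicate 1 (1.48), mud1D starvation replicate 3 (1.41) or WT starvation replicate 1 (1.12). With a pseudocount of 0.1 the ARS1226 differences were 0.35, 2.59 and 0.67 in the mutants hsh49::Q24P, nam8D and mud1D, and none was called. Scaled to the spike-in RNAs, 1 was higher and 66 lower in hsh49::Q24P, 1 and 54 in nam8D and 2 and 50 in mud1D; centred on the median row the counts were 9 and 9, 10 and 15, and 10 and 12. Over all tested rows the interaction was higher and lower for 0.822% and 39.5%, 1.28% and 32.6%, and 1.27% and 28.2% when scaled to the spike-in RNAs, and for 5.23% and 5.69%, 4.96% and 7.61%, and 5.84% and 6.98% when centred.

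Genes whose products act on origins were described beside the origins themselves. In starvation against log phase, between 27.8% and 29.4% of all tested rows rose and between 8.62% and 14.2% fell. Of 14 licensing genes, which load the helicase, 1 fell in hsh49::Q24P in starvation (ORC2, a subunit of the origin recognition complex, by 1.30 ± 0.11 on the log2 scale), 2 rose in nam8D (TAH11 and CDC6), and TAH11 rose and ORC2 fell in mud1D. In WT none was called (limma, 11 with an unadjusted p under 0.05). Of 17 firing genes 3, 3, 2 and 3 rose in hsh49::Q24P, nam8D, mud1D and WT, among them DPB11, by 1.29, 1.34, 1.21 and 1.09, and CDC7, the kinase that starts firing, by 1.38, 1.40 and 1.57 in the 3 mutants. SLD2 rose by 1.52 in WT, and no firing gene fell in any genotype. CLB6 differed from starved WT by -1.635, -1.554 and -1.562 in starved hsh49::Q24P, nam8D and mud1D, and CDC45 by -1.339, -1.424 and -1.391. These 2 were the firing genes called there, beside 7.5%, 7.8% and 8.88% of all tested rows called lower.

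Of 21 replisome genes 3, 2 and 3 fell and 1 each rose in hsh49::Q24P, nam8D and mud1D, and none was called in WT (16 with an unadjusted p under 0.05). POL30, the sliding clamp, averaged 19.7, 13.8 and 17.9 TPM in the starved mutants and 51.4 TPM in starved WT, differences of -1.38, -1.81 and -1.52. The list medians in starvation against log phase were -0.31, -0.18, -0.25 and 0.23, beside 0.42, 0.46, 0.39 and 0.50 over all rows.

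Among 9 genes of factors that bind beside origins, FKH1, a forkhead factor that sets early firing, was the 1 that fell, in all 4 genotypes, by 1.57, 2.03, 1.65 and 1.53. Of the 9, 1, 4, 3 and 0 rose in hsh49::Q24P, nam8D, mud1D and WT, among them SIR2, the silencing deacetylase, by 1.04, 1.35 and 1.35 in the 3 mutants. ABF1 was lower in starved hsh49::Q24P, nam8D and mud1D than in starved WT, by -1.11, -1.20 and -1.49. SIR2 averaged 18.5 TPM in mud1D and 14.1 TPM in WT in log phase and was not called between them. Of 16 genes of transcript termination and decay, 2, 3, 3 and 1 rose and 1, 0, 0 and 1 fell; AIR2 of the nuclear decay complex rose by 1.22, 1.40 and 1.35 in hsh49::Q24P, nam8D and mud1D.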

How the data were processed

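RNA was sequenced from 24 cultures, 3 for each of 8 groups. Per the submitters' processing notes, FastQC 0.11.9, Trimmomatic 0.39 and STAR 2.7.9a were used. The deposited TPM bear the label coco. The annotation, strand setting and treatment of repeats in counting, and the genome build, are not given in the sources used here. The deposited values are TPM, between 999639 and 999881 in total for each library, and no counts come with them, so sequencing depth is unknown. Multiplied by the annotated length less 1 base, 89.4% of 3811 low origin values were whole multiples of 1 step for each library (within 0.02 steps, up to 15 steps), and 224 of 251 origins matched the R64 length; ARS514, ARS802 and ARS1220 are among the 27 that did not. Coordinates, neighbours and sequences come from RefSeq R64.

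For the tests TPM was put on a log2 scale after adding 1, and fitted by limma 3.58.1 (R 4.3.3; 8 group means, intensity trend, 16 residual and 19.5 total degrees of freedom, 13 comparisons), over rows with at least 1 TPM in at least 3 libraries and without 92 spike-in RNAs. Fold changes on this scale understate the change of low rows. P-values were adjusted by Benjamini-Hochberg over all 6937 tested rows, and differences are given with their SE. Replicates are biological per the labels. The script was tested on simulated data. Named origins were the ribosomal DNA rows, the 10 highest by mean, the 5 largest rises and falls in each starvation comparison, 3 in each mutant comparison and 2 in each interaction (called, at least 5 TPM in the higher group), and well-known origins. The origins, gene lists and naming rule were chosen with earlier results of these data known. Alternatives were other pseudocounts, filters, scalings, a replicate block, fits of only the groups compared, no trend, and each library left out in turn. Scaling to spike-in RNAs assumes equal spike amounts per cell or RNA, which no source states. Same-numbered libraries did not deviate together (median correlations 0.01, 0.02 and -0.033).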

Additional observations from a re-analysis of the deposited data

Results flagged for a closer look

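The starvation response of these origins differed from that of WT by an interaction term (limma, adjusted p under 0.05), so a difference between genotypes drew attention to each; values are log2 differences of the mutant's response minus that of WT, 3 libraries a group. For ARS601 it was 1.47 (hsh49::Q24P), 1.22 (nam8D) and 1.26 (mud1D). For ARS1226 it was 1.46 (hsh49::Q24P), 2.83 (nam8D) and 1.63 (mud1D). For ARS1323 it was -3.44 (hsh49::Q24P), -5.05 (nam8D) and -3.03 (mud1D). For ARS1023 it was -1.75 (hsh49::Q24P), -1.92 (nam8D) and -2.08 (mud1D). For ARS815 it was -1.44 (hsh49::Q24P), -1.66 (nam8D) and -1.53 (mud1D). For ARS514 it was -2.78 (hsh49::Q24P), -2.20 (nam8D) and -2.45 (mud1D). For ARS206 it was -1.88 (hsh49::Q24P), -1.17 (nam8D) and -1.21 (mud1D). For ARS1004 it was 1.26 (hsh49::Q24P), 1.14 (nam8D) and 1.28 (mud1D). For ARS1508 it was -1.38 (hsh49::Q24P), -2.23 (nam8D) and -1.40 (mud1D). For ARS1628 it was 1.07 (nam8D) and 1.37 (mud1D). For ARS1501 it was -1.09 (nam8D). For ARS1424 it was -2.17 (nam8D). For ARS735 it was -1.11 (nam8D). For ARS1020 it was 1.42 (nam8D). For ARS1200-1 it was -2.07 (mud1D). For ARS1631 it was 1.49 (mud1D). All responses of a mutant are set against the same 6 WT libraries. Groups of 3 libraries were not searched for single outlying libraries.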

How the results depend on the processing

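No difference of a named origin that was called changed sign. The ribosomal DNA origin has 4 uncalled differences near 0 that did: in starvation against log phase, 0.01 in hsh49::Q24P and 0.10 in WT became -0.33 and -0.41 with centring and -1.06 (called) and -0.19 with spike-in scaling; starved hsh49::Q24P against WT, 0.24, became -0.16 with spike-in scaling; and the hsh49::Q24P interaction, -0.09, became 0.075 with centring. Over single libraries left out they ranged between -0.10 and 0.12, -0.017 and 0.17, 0.13 and 0.36 and -0.20 and 0.027. The counts of called origins moved with the pseudocount, the filter and the scaling. With a pseudocount of 5, starvation against log phase gave 44, 44, 45 and 48 calls in hsh49::Q24P, nam8D, mud1D and WT (104, 107, 104 and 111 as reported), the starved mutants against WT 8, 9 and 11, the interactions 8, 9 and 9, and mud1D against WT in log phase 1. With a filter of 10 TPM in 3 libraries, which tests fewer origins, the counts were 52, 49, 53 and 47, then 12, 14 and 14, then 8, 14 and 14. A pseudocount of 0.1 gave 44 calls in starved mud1D against WT. Centring on the median row gave 69 in WT. Scaling to the spike-in RNAs gave 4 in mud1D against WT in log phase and 67, 55 and 52 in the interactions; the cause was not tested. With no filter, TPM rescaled to named genes, no trend and fits of only the groups compared, each count stayed within 1.5 times the reported one. With the replicate block 1 count moved, to 27 calls against 28 in starved nam8D against WT, and 10 of 24 libraries correlated best with their own number. Leaving out one library gave 99 to 107, 104 to 110, 97 to 107 and 102 to 116 calls in starvation, 0, 1 and 2 in the log comparisons, 21 to 31, 23 to 31 and 28 to 33 in the starved comparisons, and 17 to 26, 21 to 29 and 23 to 31 in the interactions. Among single named origins, 21 values were no longer called under other settings and 13 with a library left out; beside ARS1226, the interactions of ARS514 in hsh49::Q24P and mud1D were not called with a pseudocount of 0.1 (-4.06 and -3.03), and those of ARS601 in hsh49::Q24P and ARS1020 in nam8D were not with spike-in scaling (0.92 and 0.99). The correlation of origins with the gene ending before them ranged from 0.671 to 0.964 over all alternatives. Origins under 1 TPM rest on too few reads for a comparison.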
